A study of Danio rerio with 6 samples.

Results

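A set of 8 genes of phosphate handling and bone mineralisation were followed by name, out of 30837 gene symbols in the count table: alpl, alpi.1, phex, entpd5a, phospho1, panx3, ifitm5 and fgf23. All 8 members were found, and for each the transcript with the highest summed count over the 6 libraries was used. Adult zebrafish caudal fins gave the cells, which were sorted by fluorescence at 14 days post amputation, a stage at which the bony fin rays have regrown in part. The groups were osteoblasts (titled EGFP-/sp7+), osteogenic mesenchymal progenitors (OMP, EGFP+/sp7+) and chondrogenic mesenchymal progenitors (CMP, EGFP+/sp7-), with 2 libraries each. All fish had 1 genotype. They carried a sox9a:Cre-ERt2 driver, which marks only cells that expressed sox9a and their descendants, an Ola.Actb reporter that turns from TagBFP to EGFP after recombination, an Ola.Sp7:mCherry osteoblast reporter and a cryaa:EGFP transgene, and the facility's line stems from the Tubingen strain. The lineage relation of fin mesenchyme to osteoblasts was the question of the study.

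Bone mineral forms where phosphate outweighs its inhibitor pyrophosphate. Alkaline phosphatases split pyrophosphate and other phosphate esters outside the cell, PHOSPHO1 frees phosphate from lipid head groups inside matrix vesicles, and ENPP1 makes pyrophosphate from ATP. Secreted FGF23 lowers blood phosphate through the kidney, and loss of PHEX in mammals raises FGF23 and causes rickets. In zebrafish, entpd5a is required for the skeleton to mineralise.

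Libraries held 3915569 to 5281896 reads after 1 transcript was kept per gene. Endogenous sp7, the osteoblast transcription factor osterix, had 161 and 175 CPM (counts scaled to library size) in osteoblasts, 10.4 and 8.45 CPM in OMP and 1.99 and 2.18 CPM in CMP. Reads of the reporters stood against some of the sort labels. The mCherry reporter had 2455 and 8136 reads in osteoblasts, but 6 and 62 in the libraries labelled OMP and 3 and 47 in CMP. EGFP stood at 796 and 950 CPM in osteoblasts, titled EGFP-negative, against 882 and 1115 CPM in OMP and 868 and 803 CPM in CMP. TagBFP, which the titles do not name, had 67 and 192 reads in osteoblasts, 56 and 319 in OMP and 287 and 1233 in CMP. It was called in none of the 3 comparisons. The Cre-ERt2 transgene had 0 reads in all 6 libraries. The submitters' own library names were Ob-GR for osteoblasts, Ob-G for OMP and Mes-G for CMP. Read as green and red, the last letters match the reporter reads better than the titles do, but that reading is an inference. The 11 osteoblast markers summed to 228800 and 293400 CPM in osteoblasts, 14770 and 15100 CPM in OMP and 5275 and 5511 CPM in CMP. Most of the progenitor sums was sparc (8963 and 10508 CPM in OMP, 4347 and 4697 CPM in CMP). Scpp1, with 3 and 2 reads in OMP and 6 and 5 in CMP, did not stand higher in OMP than in CMP. Of cartilage markers, sox9a was highest in CMP (54.1 and 38.1 CPM), while col2a1a, the main cartilage collagen, had 0 reads in both CMP libraries. The share of reads on 9 heat shock genes, a sign of cell stress, was 15.5% and 7.18% of reads in osteoblasts, 19.1% and 7.23% in OMP and 17.2% and 10.97% in CMP. Whether replicates stem from separate fish is not stated, so the spread behind each p-value is that between these libraries and may be technical.

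The members phex, entpd5a, phospho1, panx3, ifitm5 and fgf23 were far higher in osteoblasts than in both progenitor groups, and the alkaline phosphatases were not among them. In osteoblasts against OMP these 6 were higher and alpl and alpi.1 lower, by the quasi-likelihood test of edgeR, adjusted by Benjamini-Hochberg over all 13399 genes tested. Over all genes in that comparison, 3.22% were higher and 4.9% lower. In osteoblasts against CMP the same 6 members were higher, alpi.1 was lower and alpl was not called, against a background of 4.55% higher and 6.08% lower. In OMP against CMP, alpi.1 alone was called, as lower, where 0.955% of all genes were higher and 0.933% lower. That count of 0 higher members compares with 3 at an unadjusted p under 0.05 (alpl, phex and entpd5a) and 0 by DESeq2. The members were chosen with earlier results of these data known, so these counts describe the set. All 8 passed the filter on low counts, but phospho1 and fgf23 did so only through the osteoblast libraries, so that a difference in this direction was built into their testing. In sorted bulk samples, fewer cells of a type and less RNA per cell cannot be told apart.

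**Figure D1:**
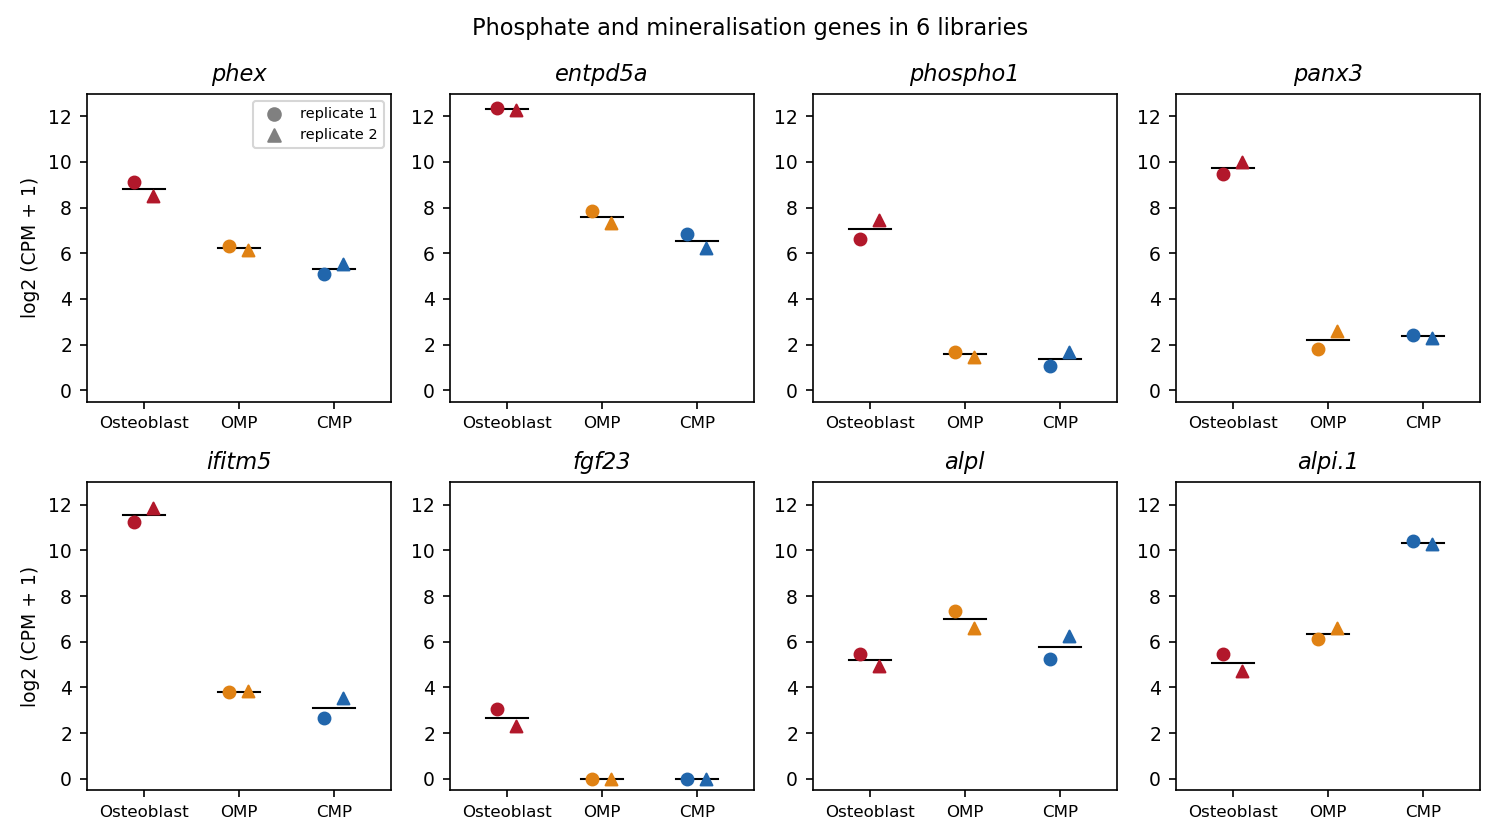
Levels of the 8 genes as log2 (CPM + 1) in each library, with groups from left to right as osteoblasts, OMP and CMP; circles are replicate 1, triangles replicate 2 and lines the mean of the 2. The first 6 genes stand highest in both osteoblast libraries, alpl stands highest in both OMP libraries, and alpi.1 stands highest in both CMP libraries (1351 and 1242 CPM).

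Entpd5a encodes an ectonucleoside triphosphate diphosphohydrolase, an enzyme that removes phosphate groups from nucleotides. It stood at 5332 and 4904 CPM in osteoblasts, 231 and 159 CPM in OMP and 114 and 73.5 CPM in CMP. The 3 groups did not overlap, and the order was osteoblasts, OMP, CMP. The rise in osteoblasts had a log2 fold change of 4.72 against OMP (SE 0.35, edgeR adjusted p = 4.49e-05) and of 5.77 against CMP (SE 0.37, edgeR adjusted p = 1.44e-05). Between OMP and CMP the log2 difference of 1.06 (SE 0.31) was not called (edgeR adjusted p = 0.149). By mean TPM, a level per transcript length, entpd5a ranked 55 among 30837 genes in osteoblasts, 1319 in OMP and 2269 in CMP.

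Phospho1, the phosphatase of phosphocholine and phosphoethanolamine, had few reads outside the osteoblast libraries. It had 302 and 759 reads there, 8 and 11 reads in OMP and 5 and 13 reads in CMP. In CPM this was 98.8 and 174 in osteoblasts, 2.19 and 1.75 in OMP and 1.1 and 2.18 in CMP. The progenitor groups overlapped each other and lay far below both osteoblast libraries. Its log2 fold change was 6.13 (SE 0.51) in osteoblasts against OMP (edgeR adjusted p = 8.72e-05) and 6.31 (SE 0.51) against CMP (edgeR adjusted p = 5.35e-05). Phospho1 passed the filter on low counts only through the osteoblast libraries, so a difference in this direction was built into its testing. For OMP against CMP the estimate was 0.19 with a 95% interval of -1.26 to 1.64, with no call. Differences within that interval are not excluded by these libraries.

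Panx3 encodes a pannexin channel that in mammals releases ATP from osteoblasts and chondrocytes. It stood at 710 and 1010 CPM in osteoblasts, 2.46 and 5.10 CPM in OMP and 4.42 and 3.85 CPM in CMP. OMP and CMP overlapped, and both osteoblast libraries lay above all 4 progenitor libraries. The log2 fold change was 7.75 (SE 0.45) in osteoblasts against OMP (edgeR adjusted p = 1.77e-05) and 7.70 (SE 0.44) against CMP (edgeR adjusted p = 9.52e-06). OMP differed from CMP by -0.05 (95% interval -1.05 to 0.95), with no call (edgeR adjusted p = 0.997). The related channel gene panx1a was tested as well and was called in none of the 3 comparisons.

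Ifitm5, also called bone-restricted ifitm-like protein and mutated in a form of human brittle bone disease, had the highest level per length of the 8 in osteoblasts. Its CPM values were 2412 and 3711 in osteoblasts, 12.9 and 13.4 in OMP and 5.30 and 10.5 in CMP. Osteoblasts stood above OMP and OMP above CMP, without overlap. Against OMP, osteoblasts had a log2 fold change of 7.86 (SE 0.45, edgeR adjusted p = 1.77e-05) and against CMP of 8.57 (SE 0.47, edgeR adjusted p = 7.01e-06). For OMP against CMP the log2 difference was 0.71 (SE 0.39, edgeR adjusted p = 0.625). By mean TPM it ranked 19 of 30837 genes in osteoblasts, 2641 in OMP and 3754 in CMP.

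Phex and fgf23 belong to the hormonal side of phosphate control. Phex encodes a membrane endopeptidase, and it was the member of the 6 with the smallest rise. Phex had 554 and 362 CPM in osteoblasts, 77.97 and 69.3 CPM in OMP and 33.1 and 45.7 CPM in CMP. The groups kept the order osteoblasts, OMP, CMP without overlap. Its log2 fold change was 2.64 (SE 0.33, edgeR adjusted p = 8.85e-04) in osteoblasts against OMP, 3.53 (SE 0.35, edgeR adjusted p = 1.50e-04) against CMP, and 0.90 (SE 0.32, edgeR adjusted p = 0.282) in OMP against CMP. Fgf23, in mammals a hormone of osteocytes and osteoblasts, had 22 and 17 reads in osteoblasts and 0 reads in all 4 progenitor libraries. The gene passed the filter on low counts only through the osteoblast libraries, so this direction was built into its testing. By the lower end of the counting interval, fgf23 was at least 13.5-fold higher in osteoblasts than in OMP. Against CMP this lower end was 14.3-fold. Both differences, against OMP and against CMP, were called (edgeR adjusted p = 0.0298 and 0.0222). These calls were fragile. DESeq2 gave adjusted p = 0.622 and 0.532. Against OMP, edgeR's adjusted p was 0.11 without osteoblast replicate 1, 0.0606 without osteoblast replicate 2, 0.0704 without OMP replicate 1 and 0.173 without OMP replicate 2. Against CMP it was 0.0871 without osteoblast replicate 1, 0.0826 without CMP replicate 1 and 0.126 without CMP replicate 2.

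Between the 2 osteoblast libraries the 6 genes did not all differ in the same direction. With 1 ratio per gene, how they vary together cannot be told. The ratio of replicate 2 to replicate 1 in CPM was 1.76 for phospho1, 1.54 for ifitm5 and 1.42 for panx3. It was 0.92 for entpd5a, 0.654 for phex and 0.541 for fgf23, the last from 22 and 17 reads. The mCherry reporter had a ratio of 2.32 and endogenous sp7 one of 1.09 between the same libraries. Per length, the deposited TPM values in osteoblasts placed ifitm5 first (3315 and 5301 TPM), before entpd5a (1206 and 1153 TPM), panx3 (351 and 519 TPM) and phex (197 and 134 TPM). Phospho1 followed with 72.6 and 133 TPM, and its upper value lay just below the lower value of phex. Alpi.1 (21.4 and 13.4 TPM), alpl (7.83 and 5.70 TPM) and fgf23 (8.40 and 4.72 TPM) came last, and alpl and fgf23 overlapped.

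**Figure D2:**
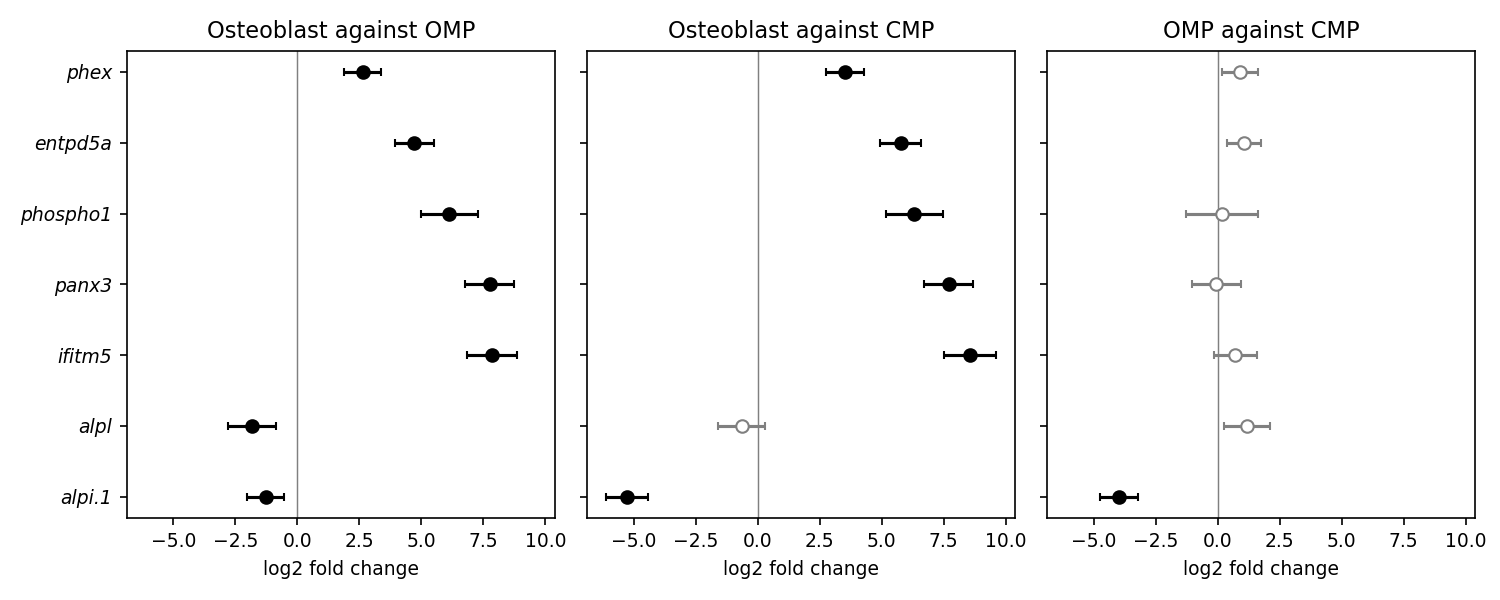
Log2 fold changes from edgeR for 7 of the 8 genes in each comparison, with 95% intervals; filled points passed the adjusted threshold and open points did not. Fgf23 is left out because it had 0 reads in OMP and CMP. In osteoblasts, 5 of the plotted genes lie to the right in both comparisons, and alpi.1 lies at -5.26 in osteoblasts and at -3.98 in OMP when each is set against CMP.

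The alkaline phosphatases ran a different course from the other 6 genes and from each other. Alpi.1 is annotated in the table as an intestinal alkaline phosphatase, tandem duplicate 1, and it was highest in CMP. It stood at 42.5 and 25.7 CPM in osteoblasts, 67.8 and 96.4 CPM in OMP and 1351 and 1242 CPM in CMP. The 3 groups did not overlap. Against CMP its log2 fold change was -3.98 in OMP (SE 0.35, edgeR adjusted p = 0.00186) and -5.26 in osteoblasts (SE 0.38, edgeR adjusted p = 2.95e-05), calls that held without any single library. Between osteoblasts and OMP the log2 fold change was -1.28 (SE 0.33, edgeR adjusted p = 0.0410). That last call was lost without osteoblast replicate 2 (0.347), OMP replicate 2 (0.242), CMP replicate 1 (0.0806) or CMP replicate 2 (0.0812), and with the earlier edgeR estimate of the dispersion (0.0514).

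Alpl, the tissue-nonspecific enzyme that in mammals is the alkaline phosphatase of bone, was highest in OMP and not in osteoblasts. It had 42.9 and 30.0 CPM in osteoblasts, 161 and 97.4 CPM in OMP and 36.4 and 76.5 CPM in CMP. Both OMP libraries lay above the other 4, and osteoblasts and CMP overlapped. Alpl was lower in osteoblasts than in OMP (-1.83, SE 0.43, edgeR adjusted p = 0.0284), a call lost without osteoblast replicate 1 (0.062), osteoblast replicate 2 (0.197) or OMP replicate 1 (0.158). Osteoblasts against CMP gave -0.64 with a 95% interval of -1.60 to 0.32 (edgeR adjusted p = 0.481). For OMP against CMP, alpl had a log2 fold change of 1.18 (95% interval 0.25 to 2.12, edgeR adjusted p = 0.273), so the rise opposite to alpi.1 did not pass the threshold. In osteoblasts against OMP both phosphatases were lower, and the opposite signs concern only OMP against CMP. The CMP libraries differed 2.1-fold from each other for alpl, which is about the size of that difference.

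Per transcript length, alpi.1 made up nearly all alkaline phosphatase RNA in CMP. Of the reads per kilobase of both genes, alpi.1 took 73.2% and 70.15% in osteoblasts, 53.7% and 73.1% in OMP and 99.0% and 97.8% in CMP. These shares rest on an alpl transcript of 5143 bases, with 587 and 611 reads in OMP. Another alpl transcript, of 3712 bases, had 524 and 522 reads there, so the lead of alpi.1 in OMP replicate 1 depends on the transcript taken. The summed level of alpi.1 and alpl was 29.2 and 19.1 TPM in osteoblasts, 77.9 and 92.4 TPM in OMP and 919 and 924 TPM in CMP. The groups did not overlap in this sum, and osteoblasts, which held the most RNA of entpd5a, phospho1 and ifitm5, held the least of these phosphatases. TPM lacks the scaling between libraries that CPM has here. In osteoblasts the marker bglap alone took 140080 and 160910 TPM, which lowers the TPM of other genes there. In CPM the 4 alkaline phosphatase genes summed to 85.4 and 55.7 in osteoblasts, 228 and 194 in OMP and 1392 and 1322 in CMP. By mean TPM, alpi.1 ranked 2691 of 30837 genes in osteoblasts, 1385 in OMP and 116 in CMP, and alpl ranked 5195 in osteoblasts, 2175 in OMP and 3892 in CMP.

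**Figure D3:**
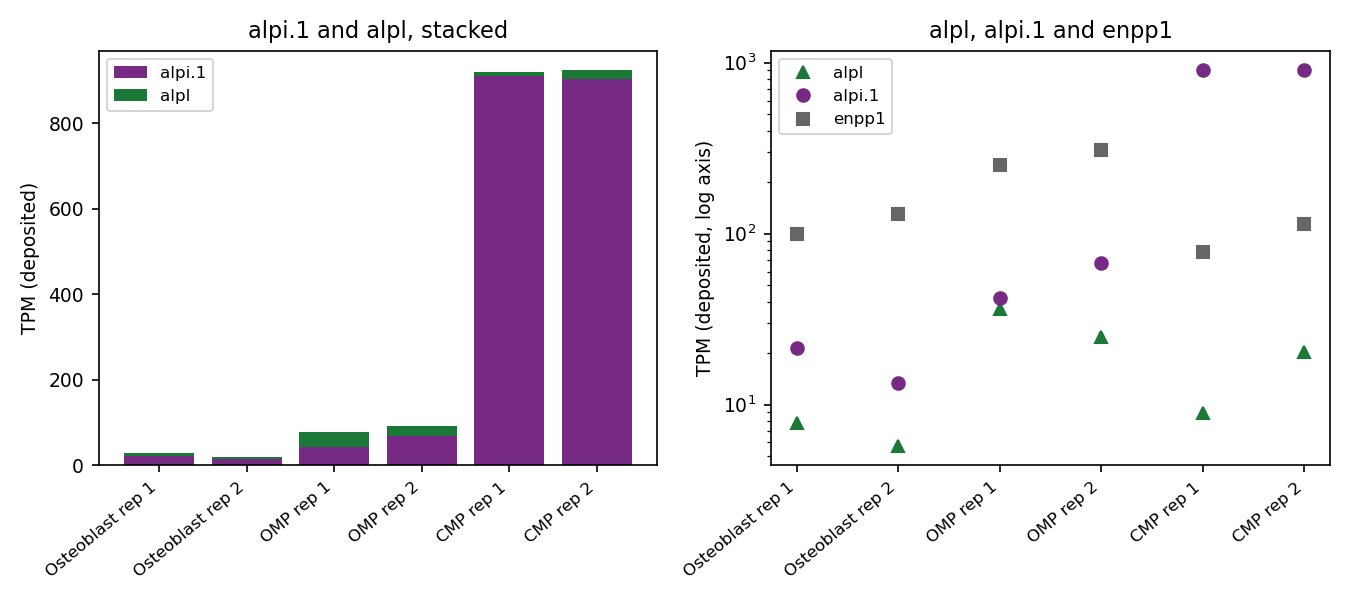
Deposited TPM of alpi.1 and alpl in each library, stacked on a linear axis from 0 (left), and beside enpp1 on a log axis (right). Both CMP libraries sum to 919 and 924 TPM, almost all of it alpi.1, while osteoblasts sum to 29.2 and 19.1 TPM; enpp1 is highest in OMP (250.3 and 309.6 TPM).

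The other alkaline phosphatase genes were low. Alpi.2, tandem duplicate 2, lies next to alpi.1 in the RefSeq table of assembly GRCz12tu, and since tandem copies can share reads, the split between them is uncertain. It had 0 reads in osteoblasts, 0 and 2 in OMP and 22 and 21 in CMP. Over the groups, 2 reads in OMP against 43 in CMP made it 20.3-fold lower in OMP (counting interval 5.3 to 173), with no edgeR call (adjusted p = 0.0947). In osteoblasts it was at least 7.9-fold lower than in CMP by the lower end of the counting interval (edgeR adjusted p = 0.0244). That call was lost without any osteoblast or CMP library. Alpi.2 passed the filter on low counts only through the CMP libraries, so a lower level elsewhere was built into its testing. Alp3 had 0 reads in all 6 libraries.

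Markers of other cells were set beside alpi.1, because the keratin genes krt4 and krt15 were also lowest in osteoblasts and highest in CMP by mean CPM. Other keratin genes did not share this order: krt5 had 380 and 154 CPM in osteoblasts, 234 and 203 CPM in OMP and 282 and 56.1 CPM in CMP, and krtt1c19e 20.3 and 5.50 CPM in osteoblasts, 20.2 and 25.0 CPM in OMP and 15.9 and 21.4 CPM in CMP. The 9 epidermal markers summed to 1464 and 1372 CPM in osteoblasts, 3575 and 3964 CPM in OMP and 6541 and 6936 CPM in CMP, and krt4 gave most of this (877 and 1155 CPM in osteoblasts, 2995 and 3476 CPM in OMP and 5504 and 6345 CPM in CMP). Of the 9, krt4 and krt15 were lower in osteoblasts than in CMP and than in OMP, the krt15 call against OMP being lost without any 1 library but osteoblast replicate 1 (0.0648 to 0.24). No epidermal marker was called between OMP and CMP by edgeR (2 lower at an unadjusted p under 0.05, 0 by DESeq2). The epithelial genes tp63, cdh1 and epcam stayed at 1.32 to 36.6 CPM in all libraries. The summed level of the 8 cartilage markers was also highest in CMP, at 364.5 and 329.7 CPM in osteoblasts, 410.1 and 514.4 CPM in OMP and 3715 and 4227 CPM in CMP, nearly all of it hapln1a. Of 3 cartilage markers tested, hapln1a and sox9a were lower in OMP and in osteoblasts than in CMP. Not all of these calls held with 1 library left out. Acanb (0 and 22 reads in CMP) and matn1 (3 and 0 reads in CMP) were also highest in CMP, each through 1 library. Sox9b and col9a1a were not highest in CMP, acana had 5 reads in OMP and 6 in CMP, and col2a1a had reads only in OMP. The part of epidermal or cartilage RNA in the alpi.1 result was not tested. The 7 enterocyte markers, for the tissue after which alpi.1 is named, were near 0, and 3 of them had 0 reads throughout. They summed to 0.98 and 0.46 CPM in osteoblasts, 0 and 0.32 CPM in OMP and 1.77 and 3.01 CPM in CMP. Most of the CMP sum was vil1 (5 and 18 reads in CMP, 0 in OMP and 2 and 0 in osteoblasts). The part of enterocyte RNA in the alpi.1 result was not tested. Leukocyte markers, relevant because neutrophils of mammals carry ALPL, summed to 39.9 and 22.7 CPM in osteoblasts, 56.9 and 46.0 CPM in OMP and 70.7 and 26.9 CPM in CMP. Most of this was cd74a (36.0 and 19.5 CPM in osteoblasts, 47.3 and 38.6 CPM in OMP and 60.9 and 21.25 CPM in CMP). The neutrophil gene mpx had 0 reads in osteoblasts, 12 and 12 in OMP and 0 and 4 in CMP. Lyz had 0 and 5 reads in osteoblasts, 0 in OMP and 9 and 0 in CMP. The part of leukocyte RNA in the alpl result was not tested.

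Genes that handle pyrophosphate and extracellular nucleotides moved both ways. Of 18 in the table, 12 were tested. In osteoblasts against OMP, 1 was higher and 2 lower (median log2 fold change 0.07, against -0.03 over all genes tested). Over all genes, 3.22% were higher and 4.9% lower. In osteoblasts against CMP 2 were higher and 2 lower (median 0.39, all genes -0.02), beside 4.55% higher and 6.08% lower over all genes. In OMP against CMP 1 was higher by edgeR (median 0.29, all genes 0.01) and 3 by DESeq2. Of all genes, edgeR called 0.955% higher and 0.933% lower there. Enpp1, which makes pyrophosphate, was highest in OMP, with 359 and 452 CPM in osteoblasts, 734 and 799 CPM in OMP and 208 and 282 CPM in CMP. It rose in OMP against CMP (1.64, SE 0.28, edgeR adjusted p = 0.0176), but not without any 1 of the OMP or CMP libraries (0.0608 to 0.200). Osteoblasts and OMP were not called apart for this gene. Entpd1, an ectonucleotidase that breaks down ATP and ADP at the cell surface, stood at 9.82 and 6.87 CPM in osteoblasts, 233 and 270 CPM in OMP and 111 and 99.7 CPM in CMP. It was lower in osteoblasts than in OMP (-4.93, SE 0.36, edgeR adjusted p = 4.37e-05) and than in CMP (-3.67, SE 0.35, edgeR adjusted p = 1.18e-04), where entpd5a was higher. Between OMP and CMP neither gene was called by edgeR, and both estimates were above 0 (1.26 for entpd1, edgeR adjusted p = 0.0669). Nt5e, which turns AMP into adenosine and phosphate, was lower in osteoblasts as well (32.7 and 46.5 CPM, against 144 and 314 CPM in OMP and 172 and 289 CPM in CMP). Its log2 fold change was -2.53 (SE 0.44, edgeR adjusted p = 0.00567) against OMP and -2.54 (SE 0.44, edgeR adjusted p = 0.00425) against CMP. Abcc6a, whose mammalian counterpart governs ATP release and ectopic calcification, stood at 352 and 211 CPM in osteoblasts, 145 and 95.6 CPM in OMP and 41.1 and 12.4 CPM in CMP. It was called by edgeR only in osteoblasts against CMP (3.41, SE 0.54, edgeR adjusted p = 0.00253). In OMP against CMP its log2 fold change was 2.18 (SE 0.52, edgeR adjusted p = 0.074). The remaining call was that of ankhb, a homologue of the pyrophosphate exporter ANKH named here outside the rule, which in osteoblasts rose by a log2 fold change of 2.36 against OMP (SE 0.50, edgeR adjusted p = 0.0158) and of 1.73 against CMP (SE 0.47, edgeR adjusted p = 0.0450). Its call against OMP was lost without osteoblast replicate 1 (0.072) or OMP replicate 1 (0.077), and that against CMP without any osteoblast or CMP library (0.0756 to 0.242).

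Phosphate entry and matrix vesicle genes were set beside the share of all genes called. In osteoblasts, 3.22% of all genes were higher against OMP and 4.55% against CMP, and 4.9% and 6.08% were lower. Of 11 phosphate transporter genes, 7 were tested. By edgeR, 1 of the 7 was higher in osteoblasts against OMP and 2 against CMP, and 0 were lower. At an unadjusted p under 0.05, and by DESeq2, 0 were lower against OMP and 1 against CMP. Slc25a3a, named here after its values were seen, had 0 reads in osteoblasts, 1 and 12 in OMP and 11 and 27 in CMP. Its log2 fold change in osteoblasts against CMP was -7.05 (SE 2.02, edgeR adjusted p = 0.0601). It passed the filter on low counts only through OMP and CMP, so this direction was built into its testing. Slc20a1a, a sodium-phosphate cotransporter, stood at 67.7 and 41.9 CPM in osteoblasts, 2.46 and 1.75 CPM in OMP and 3.53 and 4.35 CPM in CMP. Its log2 fold change in osteoblasts was 4.72 against OMP (SE 0.51, edgeR adjusted p = 3.50e-04) and 3.77 against CMP (SE 0.46, edgeR adjusted p = 5.18e-04). Its paralogue slc20a1b was not called (253 and 130 CPM in osteoblasts, 259 and 128 CPM in OMP and 185 and 102 CPM in CMP), and is named here after its values were seen. Slc20a2, of the same family, was higher in osteoblasts than in CMP (1.51, SE 0.34, edgeR adjusted p = 0.0180), a call lost without osteoblast replicate 2 (0.15), CMP replicate 1 (0.115) or CMP replicate 2 (0.14). The median log2 fold change of the transporters in osteoblasts was 0.17 against OMP (all genes -0.03) and 0.30 against CMP (all genes -0.02). Among 8 matrix vesicle and choline genes tested of 9, only smpd3 was called with all libraries. Smpd3, the neutral sphingomyelinase whose loss in mice leaves bone undermineralised, had 31.7 and 47.4 CPM in osteoblasts, 1.64 and 1.59 CPM in OMP and 0 and 0.837 CPM in CMP. Its log2 fold change in osteoblasts was 4.60 (SE 0.64, edgeR adjusted p = 0.00121) against OMP and 6.32 (SE 0.76, edgeR adjusted p = 3.31e-04) against CMP, where all reads of the CMP group came from replicate 2. Smpd3 passed the filter on low counts only through the osteoblast libraries, so a difference in this direction was built into its testing. Of both lists, no member was called in OMP against CMP (0 at an unadjusted p under 0.05 by edgeR, 0 by DESeq2). In that comparison 0.955% of all genes were higher and 0.933% lower, so 0 calls in lists this short is near that share.

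Receptors, kinases and modulators around FGF23 formed the longest pathway list. Of 23 in the table, 13 were tested. In osteoblasts against OMP 5 were higher and 1 lower (median 1.12, all genes -0.03). Against CMP 7 were higher and 2 lower (median 2.13, all genes -0.02), and in OMP against CMP 1 was higher and 1 lower (median 1.01, all genes 0.01). Over all genes, 3.22% were higher and 4.9% lower in osteoblasts against OMP, and 4.55% and 6.08% against CMP. The shares in OMP against CMP were 0.955% higher and 0.933% lower. Fam20a, the pseudokinase partner of the secretory kinase FAM20C, stood at 241 and 256 CPM in osteoblasts, 58.8 and 37.6 CPM in OMP and 14.1 and 9.20 CPM in CMP. In osteoblasts fam20a rose by a log2 fold change of 2.37 against OMP (SE 0.35, edgeR adjusted p = 0.00210) and of 4.42 against CMP (SE 0.39, edgeR adjusted p = 7.89e-05). The gene also rose in OMP against CMP (2.05, SE 0.37, edgeR adjusted p = 0.0214), though not without OMP replicate 1 (0.116), CMP replicate 1 (0.108) or CMP replicate 2 (0.246). Fam20ca, a homologue of that kinase, which in mammals phosphorylates FGF23 and bone matrix proteins, had 154 and 156 reads in osteoblasts, 10 and 15 in OMP and 4 and 0 in CMP. In osteoblasts fam20ca rose by a log2 fold change of 4.07 against OMP (SE 0.62, edgeR adjusted p = 0.00185) and, over both libraries, 109.7-fold higher than in CMP by depth-scaled reads (counting interval 42.4 to 405, edgeR adjusted p = 3.00e-04), whose 4 reads all came from replicate 1. The receptor gene fgfr4 had 308 and 286 CPM in osteoblasts, 35.8 and 58.2 CPM in OMP and 19.9 and 7.36 CPM in CMP. Its log2 fold change in osteoblasts was 2.65 against OMP (SE 0.44, edgeR adjusted p = 0.00436) and 4.47 against CMP (SE 0.49, edgeR adjusted p = 2.75e-04).

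Sost, the gene of the Wnt antagonist sclerostin that in mammals marks osteocytes, went the other way. It had 3 and 0 reads in osteoblasts, against 93 and 275 in OMP and 161 and 179 in CMP. By depth-scaled reads over both libraries it was 91.7-fold lower in osteoblasts than in OMP (counting interval 31.1 to 446.5, edgeR adjusted p = 7.53e-04) and 80.1-fold lower than in CMP (counting interval 27.2 to 390.1, edgeR adjusted p = 5.82e-04). All 3 osteoblast reads came from replicate 1, and both calls held without it. Outside the naming rule, fgfr3 and fam20cb were also higher in osteoblasts than in both other groups, fgfr1a and pth1ra were called higher in osteoblasts against CMP and not against OMP, and fgfr2 was lower in osteoblasts and in OMP than in CMP. The calls against CMP were lost for fgfr1a without CMP replicate 1 (0.051) or 2 (0.106), for pth1ra without osteoblast replicate 1 (0.0881), CMP replicate 1 (0.07) or CMP replicate 2 (0.158), and for fgfr2 in osteoblasts without osteoblast replicate 2 (0.0512). The fgfr2 call in OMP was lost without any OMP or CMP library (0.0692 to 0.187). Klotho, the co-receptor of FGF23, is encoded by kl, which had 0 reads in osteoblasts, 1 and 0 in OMP and 0 and 4 in CMP.

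Inhibitors of mineral growth had 5 genes in the table, of which 2 were tested. Spp1, the gene of osteopontin, a matrix phosphoprotein that binds mineral, was called in all 3 comparisons and mgp, the gene of matrix Gla protein, in none. Spp1 stood at 3592 and 2963 CPM in osteoblasts, 953 and 507 CPM in OMP and 91.4 and 141 CPM in CMP, without overlap. The log2 fold change of spp1 was 2.17 (SE 0.36, edgeR adjusted p = 0.00438) in osteoblasts against OMP, 4.81 (SE 0.41, edgeR adjusted p = 5.97e-05) in osteoblasts against CMP and 2.65 (SE 0.37, edgeR adjusted p = 0.00844) in OMP against CMP. The call between OMP and CMP was lost without CMP replicate 1 (0.0999) or CMP replicate 2 (0.0703). Mgp had 438 and 383 CPM in osteoblasts, 560 and 616 CPM in OMP and 572 and 897 CPM in CMP, and is named here after its values were seen.

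**Figure D4:**
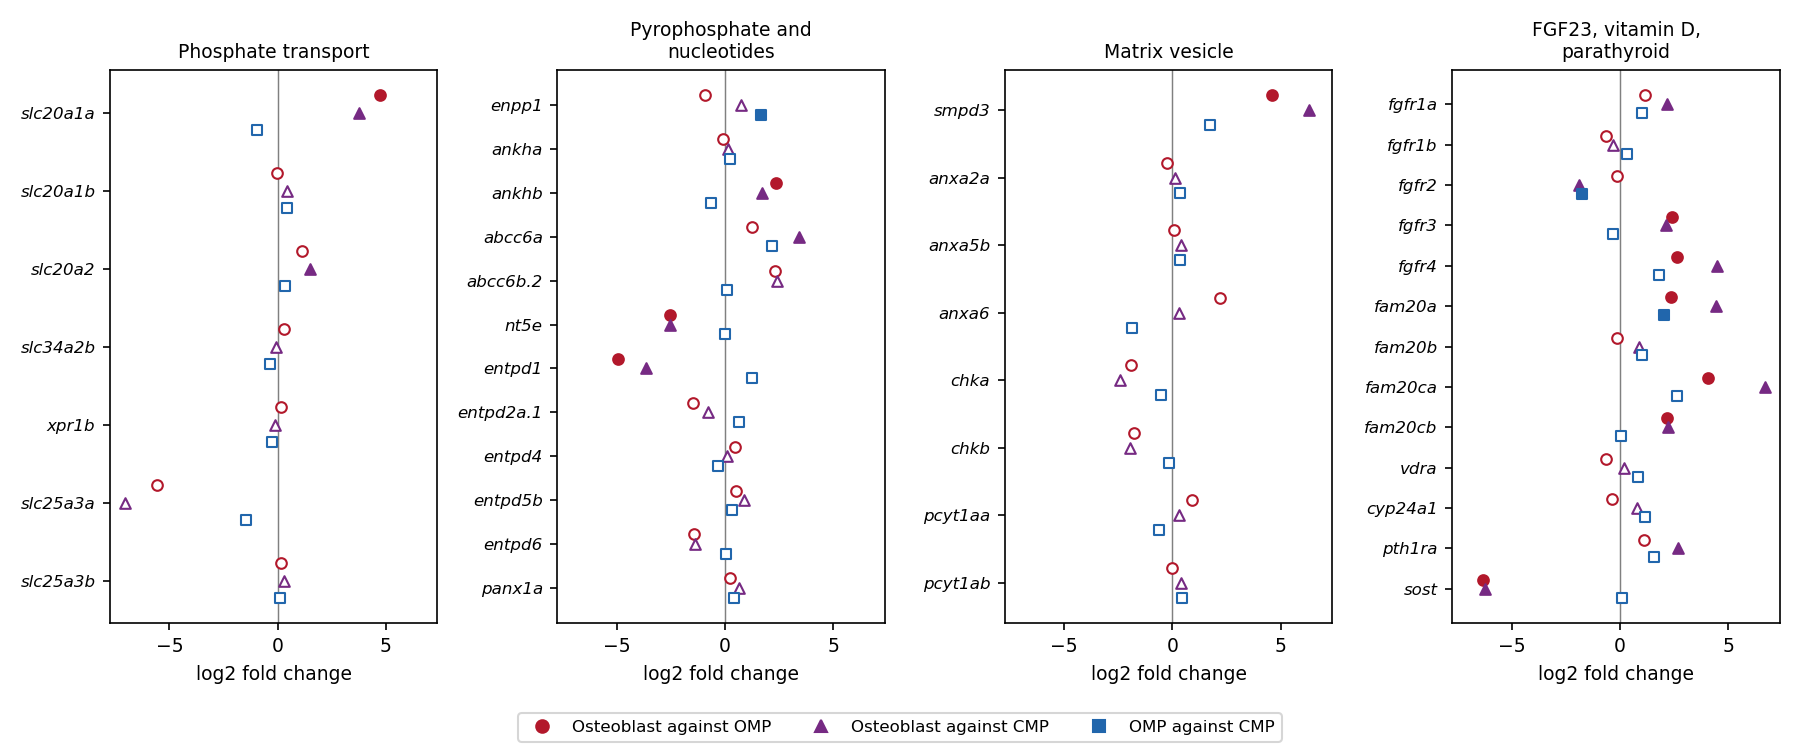
EdgeR log2 fold changes of every tested gene in 4 pathway lists; circles are osteoblasts against OMP, triangles osteoblasts against CMP and squares OMP against CMP, and filled symbols passed the adjusted threshold. Slc20a1a, smpd3 and fam20ca lie far to the right in osteoblasts. Entpd1, sost and slc25a3a lie far to the left, slc25a3a with open symbols only, and few squares are filled.

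Genes with the course most like those of 3 members were taken by Pearson correlation of log2 CPM over the 6 libraries, among 4715 genes, as a description. For alpi.1 these were cobll1b (r = 0.993), ptp4a3 (0.988), hapln1a (0.988), carhsp1 (0.986) and rpl18 (0.986). Hapln1a, the cartilage link protein gene, averaged 335 CPM in osteoblasts, 449 CPM in OMP and 3919 CPM in CMP, a narrower span than that of alpi.1, and rpl18 spanned only 832 to 1076 CPM. For phospho1 they were ust (0.998), ggcx (0.997), crip2 (0.994), emc1 (0.994) and klf6a (0.993). Ggcx, the carboxylase that activates osteocalcin and matrix Gla protein, averaged 298 CPM in osteoblasts, 67.3 CPM in OMP and 67.2 CPM in CMP. For alpl the likeness was lower, with twist1b (0.973), ms4a17a.7 (0.962), nid1b (0.957), spock3 (0.956) and arhgdia (0.955). Spock3, a secreted proteoglycan gene, averaged 7.89 CPM in osteoblasts, 96.5 CPM in OMP and 26.2 CPM in CMP.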

How the data were processed

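Per the submitters' processing notes, reads were aligned with HISAT2 2.2.1 and counted with featureCounts 2.0.3 on build GRCz11. Whether counting used strand was not given in the sources used here. The authors deposited 1 table of 75811 rows with raw counts per RefSeq transcript, transcript length, RPKM and TPM, per the file headers. The deposited TPM values gave levels between genes, and for alpi.1, alpl and enpp1 they were also set beside each other between groups. The deposited RPKM values were not used. A read shared between a gene's transcripts is listed under each of them, so the transcript with the highest total stood for its gene. A total of 2 transgene rows with empty cells were left out.

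The test was that of edgeR 4.0.16 in R 4.3.3 (TMM, filterByExpr with at least 10 reads, glmQLFit with legacy = FALSE, and 1 fit of all 6 libraries by group with 3 residual degrees of freedom), after a test on simulated data. All tests were two-sided, and a call needed p under 0.05 after Benjamini-Hochberg adjustment across the 13399 genes tested. SE comes from the log2 fold change and F (change over root F), intervals are 95%, and CPM is TMM-scaled. Counting intervals are exact, also where a group had 0 reads, and cover counting error only. Alternatives were DESeq2 1.42.0, RLE factors, no filter, summed transcripts, 4-library fits, a replicate block, the earlier (legacy) dispersion estimate and leaving out each library. Both dispersion estimates were run before legacy = FALSE was taken as the reported one, to match earlier processing of these data; this choice was made with the results seen, and it decides the alpi.1 call in osteoblasts against OMP (adjusted p = 0.0410, against 0.0514 with the legacy estimate).

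The members and lists were chosen with earlier results of these data known. Of 146 listed symbols, 140 matched the table. Named were all members, the called genes of each list (up to 4 by smallest p), the alkaline phosphatase genes, and the 5 genes most correlated with alpl, alpi.1 and phospho1 among those with a mean log2 CPM (prior count 2) of at least 4, leaving out clone and locus names. Marker lists served as checks, and the cartilage list was added after the data were seen. Osteoclast markers summed to 203 and 231 CPM in osteoblasts, 318 and 410 CPM in OMP and 253 and 266 CPM in CMP, and endothelial markers to 23.8 to 46.5 CPM per library. Most of the osteoclast sum was ctsk (185 and 210 CPM in osteoblasts, 303 and 392 CPM in OMP and 237 and 246 CPM in CMP). The osteoclast markers acp5a, acp5b, ocstamp, dcstamp and csf1ra had 0 to 8 reads per library.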

Additional observations from a re-analysis of the deposited data

How the results depend on the processing

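Phex, entpd5a, phospho1, panx3 and ifitm5 kept their calls and directions in osteoblasts against OMP and against CMP in all 13 alternatives, as did alpi.1 in OMP and in osteoblasts against CMP. For phospho1, which passed the filter only through the osteoblast libraries, this direction was built into its testing. Over all genes, osteoblasts against OMP gave 1087 calls, and 958 with counts summed over transcripts. Calls over all genes in that comparison also fell with 1 library left out, as given below. A lower count of members called in these settings therefore need not be particular to the members. Osteoblasts against OMP had 8 members called, or 5 with counts summed over transcripts and 5 to 7 with 1 library left out; alpl (adjusted p = 0.0522), alpi.1 (0.0614) and fgf23 (0.0747, and 0.0576 against CMP) lost their calls with summed transcripts, and alpi.1 also with only the 4 libraries of the groups compared (0.0976). Without CMP replicate 1 the uncalled difference of OMP against CMP turned to -0.16 for phospho1 and to 0.05 for panx3; with 1 library left out it ran up to 0.8 for phospho1 (without CMP replicate 2), and from -0.72 (without OMP replicate 2) to 0.28 (without OMP replicate 1) for panx3. The cause was not tested. Summed transcripts put the mean share of alpi.1 in osteoblasts at 63.5% in place of 71.7%, since alpl has 3 listed transcripts and alpi.1 has 2.

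Genes called in OMP against CMP numbered 253, but 403 with DESeq2, 394 without a filter and 12 (without CMP replicate 2) to 286 (without osteoblast replicate 2) with 1 library left out, and 13 without CMP replicate 1. They were 1087 in osteoblasts against OMP (602 without osteoblast replicate 2, to 942 without CMP replicate 2) and 1424 against CMP (765 without CMP replicate 2, to 1473 without OMP replicate 2). Same-numbered libraries deviated together from their group means (r across 13399 genes of 0.296 to 0.382), but the labels do not say that a number marks a shared batch. With the replicate block, 817, 1903 and 2421 genes were called in OMP against CMP, osteoblasts against OMP and osteoblasts against CMP. The block called 2 members in OMP against CMP, adding entpd5a (1.06, adjusted p = 0.0056), and changed no other member's call. At 0 to 22 reads per library, fgf23 is limited by depth.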
